A study of Mus musculus with 4 samples.

Results

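Activated non-cycling fibroblasts of mouse hearts 3 days after myocardial infarction were high in early wound genes, with few or no Mki67 and Top2a transcripts. They were chosen by a gate on unique molecular identifier (UMI) counts, where 1 UMI is 1 captured RNA molecule. A barcode with at least 500 UMIs and at most 20% mitochondrial UMIs was gated as a fibroblast when Col1a2, Dcn and Pdgfra together reached 10 UMIs per 10000, with 0 UMIs of Ptprc, the pan-leukocyte gene, and 0 UMIs of Cdh5, the endothelial cadherin gene. It entered the state when Timp1, Cthrc1 and Tnc together reached 10 UMIs per 10000, here called the gate level, and when Mki67 and Top2a, genes of dividing cells, had fewer than 3 UMIs together. The gate took in 899 cells, 397 from the control and 502 from the deletion-labelled infarction library, out of 2116 gated fibroblasts in those libraries and 41766 barcodes in the series.

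The series consists of 4 single-cell RNA libraries made from live nucleated interstitial heart cells, 1 library for each combination of genotype and injury, without replicates. Per the labels, the 2 control libraries came from hearts carrying Tcf21-MerCreMer, a Cre recombinase driven from the Tcf21 gene that tamoxifen switches on. The 2 other libraries came from hearts labelled Tcf21-MerCreMer:flox and are called deletion-labelled, since the sources used here do not give the floxed stretch, or the age, strain and number of animals behind a library. Mice of all 4 groups received tamoxifen, so the controls share both the drug and the recombinase. Baseline libraries came from uninjured hearts, and infarction libraries from hearts 3 days after the injury. Differences below are between libraries, no p-value could be computed, and intervals in parentheses are 95% intervals that cover counting error only.

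Cardiac fibroblasts are the collagen-producing stromal cells between the heart muscle fibres. After an infarct they lose resident features, divide within days, and turn into myofibroblasts, which contract through smooth muscle type actin and lay down scar matrix. Timp1 encodes a secreted inhibitor of matrix metalloproteinases, Cthrc1 a secreted glycoprotein of remodelling collagen, and Tnc the glycoprotein tenascin C of provisional matrix. Tcf21 encodes a basic helix-loop-helix transcription factor of the fibroblast lineage, which binds DNA motifs of the E-box type.

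The state was rare in uninjured hearts and common after infarction. Among baseline fibroblasts, 18 of 1673 control cells, or 1.08% (0.64 to 1.70), and 10 of 1960 deletion-labelled cells, or 0.51% (0.24 to 0.94), met the same gate. After infarction, 397 of 806 control fibroblasts, or 49.3% (45.8 to 52.8), and 502 of 1310 deletion-labelled fibroblasts, or 38.3% (35.7 to 41.0), met it, so the control share was the higher one and the intervals did not overlap. The activated cycling fibroblasts differed in the same direction, with 234 cells, or 29.0% (25.9 to 32.3), in the control and 225 cells, or 17.2% (15.2 to 19.3), in the deletion-labelled library. Fibroblasts under the activation limit made up the rest, 21.7% (18.9 to 24.7) against 44.5% (41.8 to 47.2). Cycling cells were 37.1% (33.3 to 41.0) and 30.9% (27.6 to 34.5) of activated fibroblasts, control first. The cycling limit is a UMI count not scaled to depth. Activated cycling cells had medians of 40524 and 36589 UMIs, against 28704 and 24895 in the members, and the part of depth in the cycling shares was not tested. As a share of all barcodes that passed the UMI and mitochondrial limits, the order was the other way round, at 3.99% (3.61 to 4.39) in the control and 4.85% (4.44 to 5.28) in the deletion-labelled library.

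**Figure D1:**
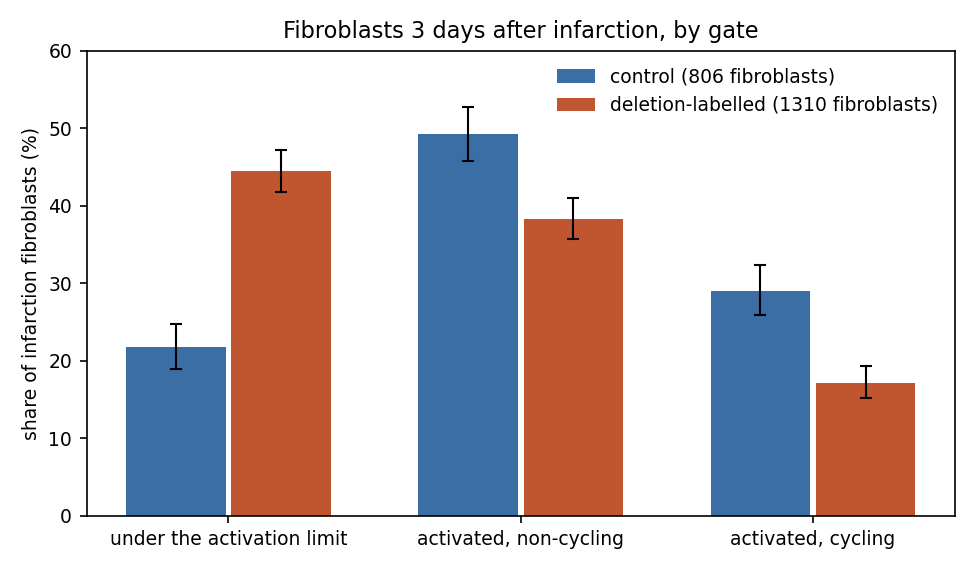
Share of gated fibroblasts (%, vertical axis) under the activation limit, in the activated non-cycling state or in the activated cycling fraction, in the control (806 fibroblasts) and deletion-labelled (1310 fibroblasts) infarction libraries. Bars are 1 library each with exact 95% binomial intervals; the state holds 49.3% of control and 38.3% of deletion-labelled fibroblasts.

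The gate cut through a continuum rather than a gap. Between 8 and 10 gate UMIs per 10000, just under the limit, lay 17 control and 25 deletion-labelled non-cycling infarction fibroblasts, and between 10 and 12, just above it, lay 20 and 25. At the cycling limit, 24 control and 36 deletion-labelled members had 2 UMIs of Mki67 and Top2a, while 24 and 28 activated cells with 3 UMIs were left out. Another 74 control and 65 deletion-labelled members had 1 such UMI, and 299 and 401 had 0. The median gate level of members was 40.1 per 10000 in the control and 39.4 in the deletion-labelled library. Members of both libraries were deeply sequenced, with medians of 28704 and 24895 UMIs per cell, and 5240 and 5001.5 genes. Baseline fibroblasts were shallower, at medians of 10123 and 12524 UMIs. Timp1 itself was found outside fibroblasts: 24.7% of control and 25.7% of deletion-labelled leukocytes other than neutrophils had a Timp1 UMI after thinning to 5000 UMIs, at median depths of 11718 and 11120 UMIs before thinning. The full activation limit was passed by 1.09% and 1.02% of these leukocytes.

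RNA of other cell types was present in the members at low levels and differed between the libraries. The 14 leukocyte markers, of which none was at 0, summed to 447 CPM (UMIs of a gene per 1000000 UMIs of the sum) in the control and 237 CPM in the deletion-labelled members. The 10 endothelial markers summed to 197 and 135 CPM, the 10 pericyte and smooth muscle markers to 104 and 87.8 CPM, and the 13 epicardial markers to 124 and 71.7 CPM. Cardiomyocyte markers were near 0, at 8.21 and 13.01 CPM over 13 genes. Erythroid markers stood at 0.61 and 43.1 CPM. The part of this RNA in the differences given below was not tested. A simulated-pair score marked 24 control and 43 deletion-labelled members as possible doublets, and these were kept here. Library pairs shared between 19 and 41 barcode sequences, and no barcode was a member in both infarction libraries.

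The genes of the gate were, by construction, high in the state, and their levels are given as a description. Timp1 (ENSMUSG00000001131, mm10 chromosome X, 20870166 to 20874735, plus strand) stood at 84.6 and 46.7 CPM in control and deletion-labelled baseline fibroblasts and at 4147 and 4551 CPM in the members. Cthrc1 (ENSMUSG00000054196, chromosome 15, 39076932 to 39087121, plus strand) stood at 1.54 and 1.67 CPM at baseline and at 515 and 576 CPM in the members. Tnc (ENSMUSG00000028364, chromosome 4, 63959785 to 64047015, minus strand) stood at 8.16 and 2.99 CPM and then at 454 and 540 CPM. The fibroblast genes of the gate did not move together: Col1a2, a chain of type I collagen, was at 1968 and 2134 CPM at baseline and 4398 and 4960 CPM in the members, while Dcn, the small proteoglycan decorin, went from 15366 and 16357 CPM to 2000 and 3339 CPM. Pdgfra, a receptor of platelet-derived growth factor, was at 712 and 545 CPM at baseline and at 160 and 182 CPM in the members.

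The other myofibroblast markers were outside the gate and stood above baseline in both sums of members. They were listed as markers with earlier results of these data known, so their levels do not test the label of the state. Nor were they limited to it: in both libraries Acta2 stood higher in activated cycling fibroblasts than in the members, and Lox and Postn lower. Acta2 (ENSMUSG00000035783, chromosome 19, 34241090 to 34255590, minus strand), the smooth muscle type alpha actin, was at 21.1 and 53.9 CPM in baseline fibroblasts and at 1256 and 861 CPM in the members. Lox (ENSMUSG00000024529), the enzyme that cross-links collagen, was at 44.0 and 16.9 CPM and then at 651 and 685 CPM. Postn (ENSMUSG00000027750, chromosome 3, 54361109 to 54391037, plus strand), the matricellular protein periostin, was at 267 and 182 CPM and then at 850 and 1809 CPM. Acta2 was highest in the control members, Postn in the deletion-labelled members, and Lox was about level between both. In baseline fibroblasts the pericyte and smooth muscle markers summed to 196 CPM in the control and 448 CPM in the deletion-labelled library, beside the low Acta2 values there, and their part in those values was not tested.

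These markers were unevenly spread over the member cells. Per 10000 UMIs of a cell, the 10th percentile, median and 90th percentile of Postn were 0, 4.94 and 20.2 in control members and 0, 9.78 and 56.9 in deletion-labelled members. The same percentiles of Acta2 were 0, 6.31 and 29.2 for control and 0, 2.92 and 20.6 for deletion-labelled members. After each cell was thinned to 5000 UMIs, with 10 control and 30 deletion-labelled members left out as too shallow, an Acta2 UMI was found in 75.7% (71.1 to 79.9) of control members and in 63.1% (58.6 to 67.5) of deletion-labelled ones. Without thinning, these shares were 84.9% and 74.7%. In the leukocytes other than neutrophils, which should lack Acta2, the thinned share was 6.16% and 4.88%. Postn, in contrast, was found in similar shares of members, 76.0% and 79.4% after thinning and 87.9% and 86.3% before it, against 1.98% and 3.18% of those leukocytes.

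**Figure D2:**
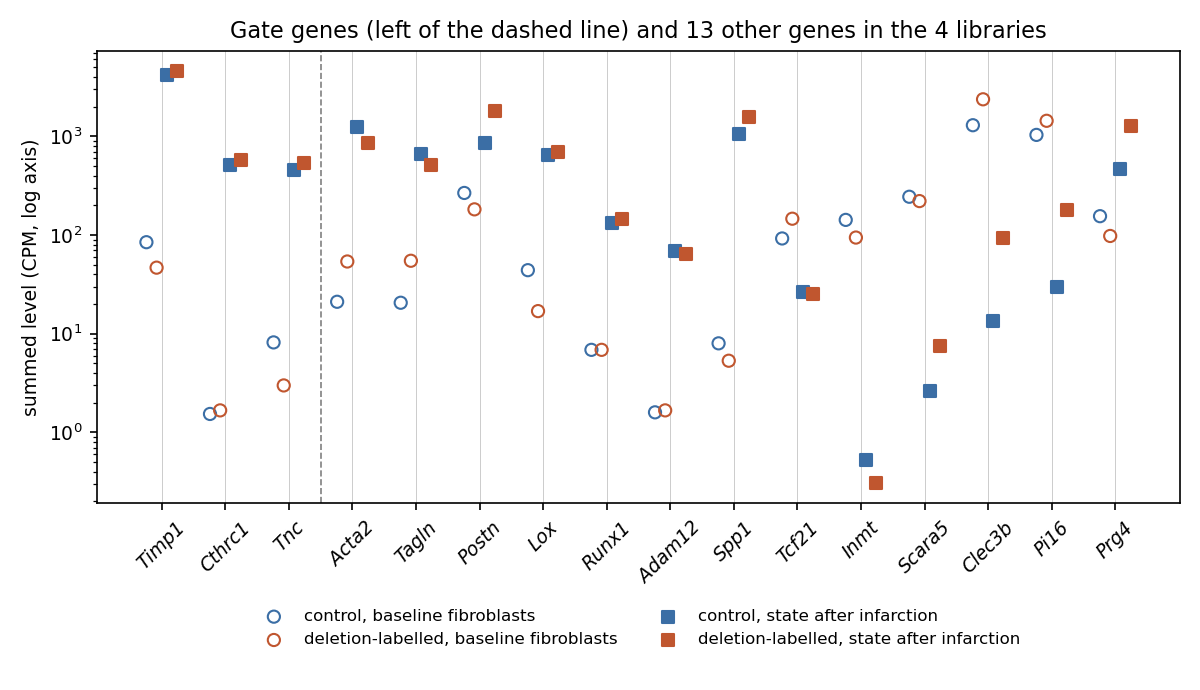
Summed level (CPM, log axis) of the 3 activation genes of the gate, left of the dashed line, and of 13 other genes in the 4 libraries; open circles are all baseline fibroblasts and filled squares the members after infarction, blue for control and orange for deletion-labelled. Acta2 stands at 1256 and 861 CPM and Postn at 850 and 1809 CPM in the members, control first.

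Set against all baseline fibroblasts of the same genotype, the members differed broadly. Among genes with at least 10 CPM in either sum, called tested below, 1822 of 9234 genes (19.7%) were at least 1.5-fold higher and 3746 (40.6%) at least 1.5-fold lower in the control. In the deletion-labelled pair 1396 of 9146 genes (15.3%) were higher and 2952 (32.3%) lower. The 1.5-fold rule orders genes by size and tests nothing. Of the higher genes, 1209 were shared, which is 66.4% of the control list and 86.6% of the deletion-labelled list. The median log2 ratio over all tested genes was -0.36 in the control and -0.24 in the deletion-labelled pair, and values of gene lists below are read against it. Scaling by the median of ratios, which centres the typical gene, moved the counts to 2780 higher and 2567 lower genes for the control pair, and to 2245 and 1998 for the deletion-labelled pair.

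Contractile and cytoskeletal genes stood higher in the state in both genotypes. Of 28 tested, 21 were at least 1.5-fold higher in the control and 20 in the deletion-labelled pair, none was 1.5-fold lower, and the median log2 ratios were 1.17 and 0.95. Acta2 had a log2 ratio of 5.90 (5.75 to 6.05) in the control and 3.997 (3.91 to 4.08) in the deletion-labelled pair. The latter became 5.01 without the possible doublets and 4.81 under a stricter limit on markers of other lineages. Tagln, the actin-binding protein transgelin, was at 20.6 and 54.8 CPM at baseline and 654 and 513 CPM in the members. Tpm2, a tropomyosin, was at 55.3 and 66.8 CPM and then at 779 and 624 CPM. Palld, the actin scaffold palladin, was at 6.86 and 11.5 CPM and then at 107 and 132 CPM. Cnn1, a calponin of mature smooth muscle, stayed low in all 4 sums, at 0, 0.26, 3.32 and 1.23 CPM.

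Genes of the actin cytoskeleton are textbook targets of serum response factor, which binds the CArG box, so the promoters of the contractile list were searched for this motif together with the E-box CAGCTG and the AP-1 site TGACTCA. The search covered both strands of the 250 bases before each RefSeq gene start on GRCm38.p6, with all listed starts of a gene, and none of these motifs contains another. The CArG box was found in 5 of 27 contractile genes with an entry, or 18.5%, against 439 of 27025 genes, or 1.62%, in the whole table. CAGCTG was found in 4 of 27, or 14.8%, against 14.7% of all genes. The AP-1 site was found in 3 of 27, or 11.1%, against 5.16% of all genes. The 4 promoters shown are those of contractile genes with a CArG box whose box lies outside the transcribed gene in the GENCODE annotation, with the box in capitals, 5′ to 3′ on the strand of the gene and without bases inside the annotated gene.
Actg1: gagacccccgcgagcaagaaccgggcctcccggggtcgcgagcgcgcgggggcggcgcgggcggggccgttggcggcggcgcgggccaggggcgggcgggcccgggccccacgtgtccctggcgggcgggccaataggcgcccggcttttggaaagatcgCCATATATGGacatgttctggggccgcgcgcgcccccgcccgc
Cnn2: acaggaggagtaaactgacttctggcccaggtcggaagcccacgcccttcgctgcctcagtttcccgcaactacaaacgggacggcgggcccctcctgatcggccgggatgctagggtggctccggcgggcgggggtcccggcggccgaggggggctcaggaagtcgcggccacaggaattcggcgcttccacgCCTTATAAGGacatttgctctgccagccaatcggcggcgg
Myl9: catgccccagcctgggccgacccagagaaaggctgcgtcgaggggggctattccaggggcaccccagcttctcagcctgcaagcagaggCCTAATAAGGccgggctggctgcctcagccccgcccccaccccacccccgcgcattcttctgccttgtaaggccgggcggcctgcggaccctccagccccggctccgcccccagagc
Vcl: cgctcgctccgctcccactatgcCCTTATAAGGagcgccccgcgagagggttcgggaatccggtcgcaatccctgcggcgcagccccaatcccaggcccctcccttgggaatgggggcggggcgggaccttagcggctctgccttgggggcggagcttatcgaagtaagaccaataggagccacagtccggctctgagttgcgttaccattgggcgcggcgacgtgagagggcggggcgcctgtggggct
The boxes began 90, 56, 161 and 227 bases before the RefSeq start of Actg1 (chr11:120348543-120348745, minus strand), Cnn2 (chr10:79988350-79988583, plus strand), Myl9 (chr2:156775214-156775419, plus strand) and Vcl (chr14:20929148-20929397, plus strand). Actg1, the cytoplasmic gamma actin, was at 1293 and 1261 CPM in baseline fibroblasts and at 3257 and 2849 CPM in the members. Cnn2, a calponin of non-muscle cells, was at 59.8 and 61.3 CPM and then at 209 and 161 CPM. Myl9, a regulatory myosin light chain, was at 20.2 and 36.9 CPM and then at 83.1 and 66.7 CPM. Vcl, the focal adhesion protein vinculin, was at 108 and 87.9 CPM and then at 162 and 127 CPM, and its log2 ratios of 0.59 and 0.53 lay at the 1.5-fold limit. All 4 were higher in control than in deletion-labelled members, and the whole contractile list had a genotype median log2 ratio of -0.20. Srf, the serum response factor gene, was at 6.75 and 8.10 CPM at baseline and 16.2 and 12.7 CPM in the members. A motif match describes letters of the window and no binding was measured. Since the list holds genes of a kind known to be targets, its CArG share says nothing about these libraries.

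Collagen genes lay on both sides. Of the fibrillar collagens, Col1a1 was at 1459 and 1506 CPM in baseline fibroblasts and 3904 and 4067 CPM in the members, and Col3a1 at 2987 and 2845 CPM and then 4812 and 6712 CPM. Col11a1 and Col12a1, minor collagens of growing or stressed connective tissue, went from 3.37 and 7.30 CPM to 49.5 and 81.1 CPM and from 15.0 and 14.6 CPM to 124 and 126 CPM. Col6a1, a chain of microfibrillar collagen, was lower, at 1118 and 961 CPM and then 348 and 548 CPM. Col4a1, of basement membranes, was at 2044 and 1391 CPM and then 905 and 956 CPM, past 1.5-fold in the control pair and under it, at a log2 ratio of -0.54, in the deletion-labelled pair. Of 17 tested collagen genes, 5 were higher and 8 lower by the 1.5-fold rule in the control, and 7 higher and 3 lower in the deletion-labelled pair. Genes of all kinds also lay on both sides. For the control pair, 19.7% of all tested genes were higher and 40.6% lower. The matching shares for the deletion-labelled pair were 15.3% and 32.3%. The genes that process and cross-link collagen were mostly higher, 14 of 25 in the control and 15 of 25 in the deletion-labelled pair, with 3 lower in each. P4ha3, a prolyl hydroxylase of collagen, was at 0.65 and 0.66 CPM at baseline and 44.2 and 46.7 CPM in the members.

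Glycoproteins and matricellular proteins held some of the largest ratios of the comparison. Ccn4, a secreted protein induced in Wnt signalling, was at 0.47 and 1.80 CPM at baseline and 110 and 99.2 CPM in the members. Spp1, the adhesive glycoprotein osteopontin, was at 7.99 and 5.32 CPM and then at 1043 and 1561 CPM. Fn1, fibronectin, was at 187 and 132 CPM and then at 1302 and 1056 CPM. Leukocytes other than neutrophils held 8278 and 6303 CPM of Spp1 and 2026 and 2135 CPM of Fn1 in the same infarction libraries, and the part of their RNA in the member values was not tested. Other members of this list were lower, and over 38 tested genes 9 were higher and 21 lower in the control, and 14 higher and 18 lower in the deletion-labelled pair. The control counts are read beside 19.7% of all tested genes higher and 40.6% lower. Those of the deletion-labelled pair are read beside 15.3% and 32.3%.

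Among the 12 genes with the highest ratios in both genotypes were several regulators and enzymes. Runx1, a runt-family transcription factor, was at 6.86 and 6.86 CPM in baseline fibroblasts and at 133 and 145 CPM in the members. Adam12, a membrane-bound metalloproteinase of activated stroma, was at 1.60 and 1.67 CPM and then at 69.2 and 64.8 CPM. Ereg, the growth factor epiregulin, was at 3.08 and 1.10 CPM and then at 57.8 and 57.5 CPM. Slc16a3, a lactate exporter, was at 5.15 and 5.37 CPM and then at 121 and 97.9 CPM. Fkbp11, a prolyl isomerase of the endoplasmic reticulum, was at 20.6 and 16.7 CPM and then at 339 and 298 CPM. For these 5 genes the members of both libraries lay above both baseline sums by more than 10-fold. This comparison is with baseline only, and the genes were not limited to the state. Adam12, Slc16a3 and Fkbp11 stood higher in the activated cycling fibroblasts of both libraries than in the members, and Runx1 and Ereg lower. In the control, Adam12 had 879 of 10023816 UMIs in the cycling cells and 792 of 11442571 in the members. After thinning, leukocytes other than neutrophils held a Runx1 UMI in 38.6% and 41.8% of cells, and a Slc16a3 UMI in 45.3% and 43.5%. Adam12, Ereg and Fkbp11 were found in at most 2.01% of them. The part of leukocyte RNA in the member values was not tested.

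Inflammatory mediators and fuel metabolism stood higher as well. In the list of chemokines, cytokines and acute phase genes, 23 of 33 tested were higher in the control and 24 of 32 in the deletion-labelled pair, with 5 lower in each. Cxcl5, an attractant of neutrophils, was at 59.9 and 18.3 CPM at baseline and at 251 and 294 CPM in the members, and Ccl2, an attractant of monocytes, was at 140 and 117 CPM and then at 516 and 601 CPM. Il6 was at 5.62 and 5.41 CPM and then at 71.6 and 49.7 CPM, and Ptx3, a soluble pattern receptor, at 16.7 and 8.98 CPM and then at 149 and 152 CPM. Of 26 tested glycolysis and hypoxia genes, 18 were higher in each genotype, with 6 lower in the control and 5 in the deletion-labelled pair. The control counts of both lists stand beside 19.7% of all tested genes higher and 40.6% lower. Those of the deletion-labelled pair stand beside 15.3% and 32.3%. Pgk1, an enzyme of glycolysis, was at 74.7 and 78.1 CPM and then at 603 and 493 CPM, and Ldha, which makes lactate, at 166 and 191 CPM and then at 900 and 780 CPM.

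Genes of resident fibroblasts were lower in the state in both genotypes. Of 37 tested, 34 were at least 1.5-fold lower and 1 higher in each pair, with median log2 ratios of -3.57 in the control and -2.49 in the deletion-labelled pair. Scara5, a ferritin receptor of adventitial fibroblasts, was at 244 and 221 CPM at baseline and 2.62 and 7.54 CPM in the members. Inmt, a methyltransferase, was at 142 and 94.2 CPM and then at 0.52 and 0.31 CPM, which is 6 and 4 UMIs over all members. Pcsk6, a proprotein convertase, was at 898 and 880 CPM and then at 25.8 and 40.8 CPM. Smoc2, a matricellular calcium-binding protein, was at 2000 and 2045 CPM and then at 135 and 195 CPM. The 1 gene of the list that was higher was Has1, a hyaluronan synthase, at 8.46 and 3.34 CPM and then at 30.5 and 35.3 CPM. Complement genes lay on the same side, 9 of 11 tested lower in the control and 9 of 10 in the deletion-labelled pair. These counts stand beside 40.6% and 32.3% of all tested genes lower.

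Tcf21 was lower in the members than at baseline and about level between genotypes. Its level (ENSMUSG00000045680, chromosome 10, 22817281 to 22820174, minus strand) was 92.2 CPM in control and 146 CPM in deletion-labelled baseline fibroblasts, and 26.7 CPM and 25.02 CPM in the members, from 306 and 325 UMIs. The log2 ratio of state over baseline was -1.79 (-1.97 to -1.61) in the control and -2.55 (-2.72 to -2.38) in the deletion-labelled pair. Within the state the genotype log2 ratio was -0.10 (-0.33 to 0.13), an interval that includes 0, and its sign changed between settings, from -0.20 to 0.13. After thinning to 5000 UMIs a Tcf21 UMI was found in 11.9% of control and 12.1% of deletion-labelled members, against 35.9% and 44.7% of baseline fibroblasts and 0.03% and 0.09% of leukocytes other than neutrophils. Before thinning, the member shares were 38.5% and 33.9%. The reads come from the transcript end and the floxed stretch is not given in the sources used here, so this level does not check the deletion.

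The added eGFP sequence was lower in the deletion-labelled libraries in and out of the state. It stood at 633 and 346 CPM in baseline fibroblasts and at 1472 and 662 CPM in the members, with a genotype log2 ratio of -1.15 (-1.19 to -1.12) in the state and -0.87 at baseline. An eGFP UMI was found after thinning in 47.8% of control and 27.5% of deletion-labelled members, and in 8.98% and 8.43% of leukocytes other than neutrophils. The labels used here do not say which allele carries eGFP. The MerCreMer sequence was rare, with 0.96 and 0.31 CPM in the members.

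The genotypes were then compared within the state. Of 8102 tested genes, 195 (2.41%) were at least 1.5-fold higher and 118 (1.46%) at least 1.5-fold lower in deletion-labelled than in control members, and the median log2 ratio over all tested genes was 0.02. With each member thinned to 5000 UMIs, 575 genes were higher and 384 lower, and with means of per-cell CPM 298 were higher. In baseline fibroblasts the corresponding counts were 302 (3.34%) and 343 (3.79%) of 9043. Resident fibroblast genes held the largest group among the higher genes, 19 of 32 tested with 0 lower and a median log2 ratio of 0.69. The median of the same list between the baseline libraries was 0.04, with 3 of 36 higher and 5 lower. Its median within the state stayed between 0.58 and 0.91 in the alternative settings.

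Clec3b and Pi16 led the higher genes with at least 50 CPM. Clec3b (ENSMUSG00000025784, chromosome 9, 123150946 to 123157432, plus strand), the plasminogen-binding lectin tetranectin, was at 13.5 CPM in control and 92.8 CPM in deletion-labelled members, a log2 ratio of 2.78 (2.53 to 3.03), which became 3.50 with the gate applied after thinning. Pi16 (ENSMUSG00000024011, chromosome 17, 29317680 to 29330593, plus strand), a peptidase inhibitor of adventitial fibroblasts, was at 29.98 and 181 CPM, a log2 ratio of 2.59 (2.43 to 2.76). At baseline the same genes were far higher in both genotypes, Clec3b at 1295 and 2370 CPM and Pi16 at 1033 and 1436 CPM, so the deletion-labelled members lay between baseline and control members. After thinning to 5000 UMIs, Clec3b was found in 3.62% (1.99 to 5.995) of control members and in 19.1% (15.6 to 22.9) of deletion-labelled ones, and in 0.05% and 0.65% of leukocytes other than neutrophils. Unthinned, the member shares of Clec3b were 9.07% and 33.9%. Pi16 was found in 9.82% and 31.8% of members after thinning and 21.9% and 50.4% before it, against 5.92% and 7.84% of those leukocytes.

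Other resident genes stood higher as well. Apod, the lipid carrier apolipoprotein D, was at 6.73 and 48.0 CPM in the members, a log2 ratio of 2.83 (2.49 to 3.19). Gsn, the actin-severing protein gelsolin, was at 315 and 931 CPM, a log2 ratio of 1.56, although neutrophils of the same libraries also held 527 and 574 CPM of it. Cd34, a sialomucin of progenitor and adventitial cells, was at 86.0 and 238 CPM. It was also present in the endothelial gate at 684 and 745 CPM, while the endothelial markers in the members summed to 197 and 135 CPM. Dpt, the matrix protein dermatopontin, was at 205 and 365 CPM. From the list of proteases, Mmp2, a gelatinase, was at 70.0 and 126 CPM, and Htra3, a secreted serine protease, at 69.4 and 137 CPM. None of these returned to baseline: Gsn stood at 16123 and 17065 CPM there, and Dpt at 1303 and 1375 CPM.

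Matrix glycoproteins formed another group of higher genes, 11 of 37 tested with 0 lower and a median log2 ratio of 0.38. Of all tested genes, 2.41% were higher and 1.46% lower. Postn had a log2 ratio of 1.09 (1.06 to 1.12) within the state, from 850 and 1809 CPM, and of -0.55 between the baseline libraries. Prg4 (ENSMUSG00000006014, chromosome 1, 150449412 to 150466165, minus strand), the lubricating proteoglycan of joints and tendon sheaths, was at 462 and 1261 CPM in the members, a log2 ratio of 1.45 (1.40 to 1.49), against 155 and 97.8 CPM at baseline. Cilp (ENSMUSG00000042254, chromosome 9, 65265180 to 65280605, plus strand), a matrix protein of cartilage and of cardiac scars, was at 64.1 and 204 CPM in the members and 189 and 134 CPM at baseline. Postn, Prg4 and Cilp were thus higher in the deletion-labelled library within the state and lower in it at baseline.

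Thbs4 (ENSMUSG00000021702, chromosome 13, 92751590 to 92794818, minus strand), a thrombospondin of tendon and stressed heart tissue, was at 26.6 and 94.6 CPM. Of its control UMIs, 40.5% came from 1 cell, and without cells that dominate a named gene the log2 ratio of Thbs4 went from 1.83 to 3.63. Tnxb (ENSMUSG00000033327, chromosome 17, 34670535 to 34719815, plus strand), tenascin X of elastic connective tissue, was at 19.8 and 69.6 CPM, a log2 ratio of 1.82 (1.61 to 2.03), and at 1000 and 662 CPM at baseline. Scx, the tendon transcription factor scleraxis, was scarce, at 3.23 and 10.3 CPM. Col6a1, Col6a2 and Col11a1 were the 3 of 17 collagens that were at least 1.5-fold higher, with log2 ratios of 0.66, 0.68 and 0.71. Col1a1 had a log2 ratio of 0.06 (0.04 to 0.08).

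Contractile genes lay slightly on the other side. Of 28 tested, 0 were 1.5-fold higher and 1 was lower in deletion-labelled members, with a median log2 ratio of -0.20 and a range of -0.24 to -0.18 over the alternative settings. The log2 ratio was -0.55 (-0.58 to -0.51) for Acta2, -0.35 (-0.40 to -0.30) for Tagln, -0.32 (-0.36 to -0.28) for Tpm2 and -0.38 (-0.46 to -0.29) for Cnn2, none of them past 1.5-fold. Over the alternative settings the Acta2 ratio lay between -0.64 and -0.41, which is past 1.5-fold at its lower end. The 1 lower gene was Cdh11, a cadherin of mesenchymal cells, at 29.6 and 18.1 CPM. At baseline Acta2 and Tagln differed in the other direction, with log2 ratios of 1.36 and 1.41, beside the higher pericyte markers in the deletion-labelled baseline fibroblasts (Rgs5 at 77.5 and 223 CPM). Their part in the baseline difference was not tested.

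**Figure D3:**
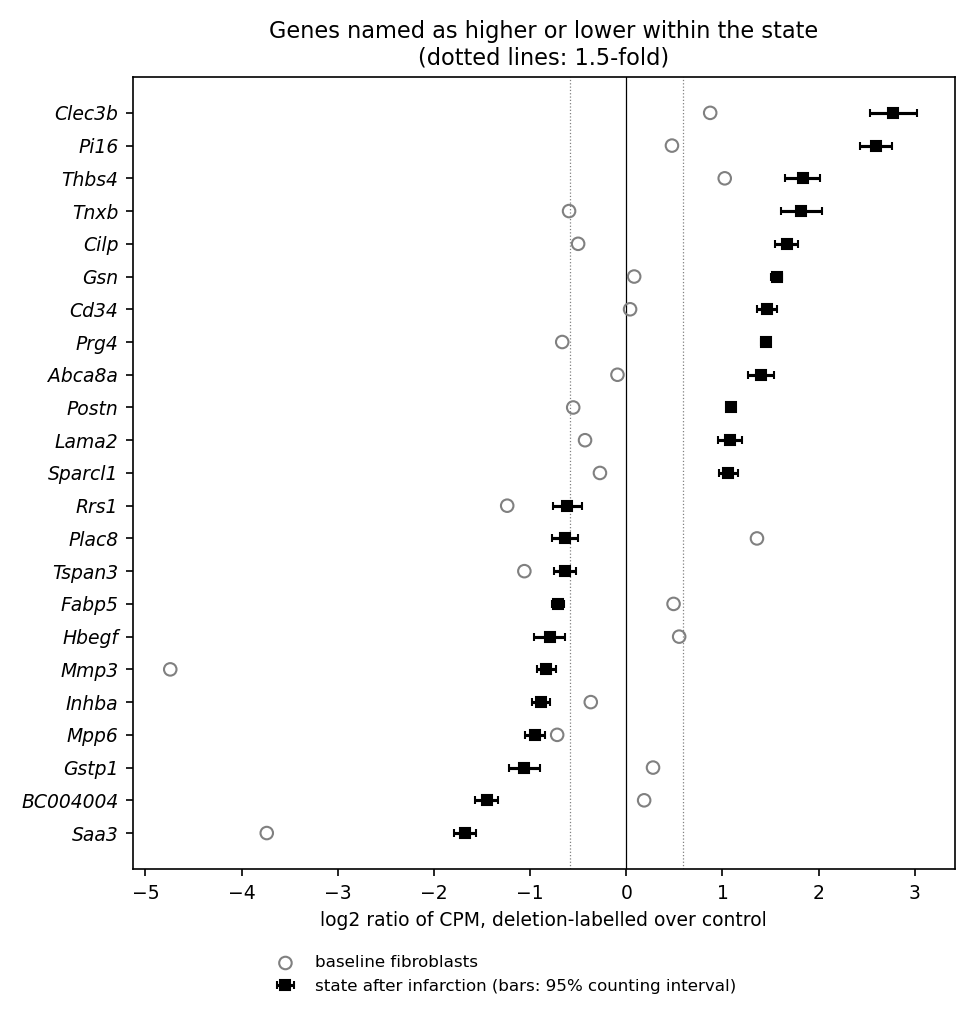
Log2 ratio of CPM, deletion-labelled over control, for the 12 highest and 11 of the 12 lowest genes within the state (filled squares with 95% counting intervals) and for the same genes in baseline fibroblasts (open circles); dotted lines mark 1.5-fold. Clec3b stands at 2.78 and Saa3 at -1.68 within the state, while Prg4, Postn and Tnxb lie below 0 at baseline.

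Signalling genes lay on both sides. By the 1.5-fold rule, 4 of 26 tested TGF-beta genes, 4 of 28 growth factors and receptors and 3 of 13 Wnt genes were higher, beside 2.41% of all tested genes, and 1, 1 and 0 were lower, beside 1.46%. Inhba (ENSMUSG00000041324, chromosome 13, 16011851 to 16031621, plus strand), which encodes the subunit of activin A, a ligand of the TGF-beta family, was at 233 CPM in control and 126 CPM in deletion-labelled members, a log2 ratio of -0.89 (-0.98 to -0.80). With the gate applied after thinning the ratio was -0.48, which is under 1.5-fold. Hbegf, a ligand of the epidermal growth factor receptor, was at 69.6 and 40.03 CPM, a log2 ratio of -0.80 (-0.96 to -0.64). On the higher side of the TGF-beta list were Bmp4, a bone morphogenetic protein, at 13.2 and 24.0 CPM, Ltbp1, which anchors latent TGF-beta in the matrix, at 25.7 and 43.7 CPM, and Tgfbr3, the co-receptor betaglycan, at 32.9 and 55.5 CPM. The median log2 ratio over the TGF-beta list was 0.03. Tgfb1, a ligand of the pathway, had a log2 ratio of -0.11.

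Mmp3 and Saa3 were lower in the deletion-labelled members. Mmp3 (ENSMUSG00000043613, chromosome 9, 7445822 to 7455975, plus strand), the protease stromelysin 1, was at 200 and 112 CPM, a log2 ratio of -0.83 (-0.93 to -0.74). At baseline it was at 206 and 7.70 CPM, so the control level was about equal in and out of the state while the deletion-labelled level was higher in the state. Saa3, an acute phase protein, was at 222 and 69.5 CPM, but 40.4% of its control and 65.9% of its deletion-labelled UMIs came from 1 cell each. Its log2 ratio of -1.68 lay between -3.20 and -0.60 in the alternative settings. Leukocytes other than neutrophils held 989 and 1387 CPM of Saa3, and a Saa3 UMI was found after thinning in 10.3% and 11.02% of members against 24.0% and 24.1% of those leukocytes.

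The AP-1 site, bound by the Fos and Jun factors of early wound signalling, was present in the promoters of genes on both sides. In the 8 of 12 lower genes with an entry it was found in 3, or 37.5% (BC004004, Gstp1 and Mmp3), in the 9 of 12 higher genes in 1, Tnxb, and in 5.16% of all genes. The promoters of Mmp3 (chr9:7445572-7445821, plus strand) and Tnxb (chr17:34670285-34670534, plus strand) are shown since both carry the same letters at a similar distance, 46 and 55 bases before the start, while the genes differed in opposite directions. The site, read on the other strand as TGAGTCA, is in capitals.
Mmp3: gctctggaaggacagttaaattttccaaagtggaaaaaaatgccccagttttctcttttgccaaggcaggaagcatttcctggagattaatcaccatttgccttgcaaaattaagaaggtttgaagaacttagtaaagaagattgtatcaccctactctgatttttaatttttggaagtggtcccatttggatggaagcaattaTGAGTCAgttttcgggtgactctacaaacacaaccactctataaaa
Tnxb: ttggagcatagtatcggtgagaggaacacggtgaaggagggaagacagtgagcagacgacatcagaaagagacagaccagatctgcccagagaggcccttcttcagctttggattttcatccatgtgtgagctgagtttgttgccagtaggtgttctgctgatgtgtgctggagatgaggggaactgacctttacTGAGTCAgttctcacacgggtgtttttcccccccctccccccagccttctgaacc
The E-box CAGCTG was found in 2 of the 9 higher genes, Cilp and Gsn, in 1 of the 8 lower genes, Plac8, and in 5 of 28 resident genes, or 17.9%, against 14.7% of all genes. The CArG box was found in 0 of 28 resident genes, in 1 of 9 higher genes (Lama2) and 1 of 8 lower genes (Gstp1). The AP-1 site was found in 3 of 28 resident genes, or 10.7%, beside 5.16% of all genes.

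Other lower genes were not limited to the state or were close to the 1.5-fold limit. BC004004 was at 179 and 65.4 CPM in the members, and also lower in deletion-labelled neutrophils (101 and 45.6 CPM), other leukocytes (131 and 50.8 CPM), endothelial cells (113 and 56.8 CPM) and mural cells (144 and 42.3 CPM). Gstp1, a glutathione transferase, was at 78.7 and 37.7 CPM in the members and at 16.5 and 8.37 CPM in neutrophils. Tspan3 was likewise lower in these 4 classes. Mpp6, a membrane scaffold protein, was at 170 and 87.8 CPM in the members, a log2 ratio of -0.95. Fabp5, a fatty acid carrier, was at 433 and 266 CPM, a log2 ratio of -0.71 that became -0.54 when cells with any Mki67 or Top2a UMI were left out. Leukocytes other than neutrophils held 2130 and 1408 CPM of Fabp5 and 392 and 437 CPM of Plac8, beside leukocyte markers of 447 and 237 CPM in the members, and their part in both values was not tested. Plac8 was at 87.9 and 56.6 CPM, with a log2 ratio of -0.64 that became -0.25 without dominant cells. Rrs1, at a log2 ratio of -0.61, became -0.58 at an activation limit of 20 per 10000. Over the settings it lay between -0.75 and -0.51.

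Markers of leukocytes also differed within the state, with 9 of 10 tested at least 1.5-fold lower in deletion-labelled members and a median log2 ratio of -0.95, and all 10 stood at under 0.1 of their level in another gated class of the same library. Among epicardial markers 4 of 5 were lower, with a median of -1.94 that became 0.43 at an activation limit of 20 per 10000 and 0.29 under the stricter lineage limit, each with 1 gene tested, and 1 cell in each library held 61.5% (control) and 73.3% (deletion-labelled) of the Krt8 UMIs. Interferon-stimulated genes had 0 of 28 higher and 2 lower, among them Ifit3 at 47.2 and 24.6 CPM. These list counts stand beside 2.41% of all tested genes higher and 1.46% lower. No gene of the glycolysis, endoplasmic reticulum or respiratory chain lists was past 1.5-fold, out of 26, 31 and 47 tested.

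**Figure D4:**
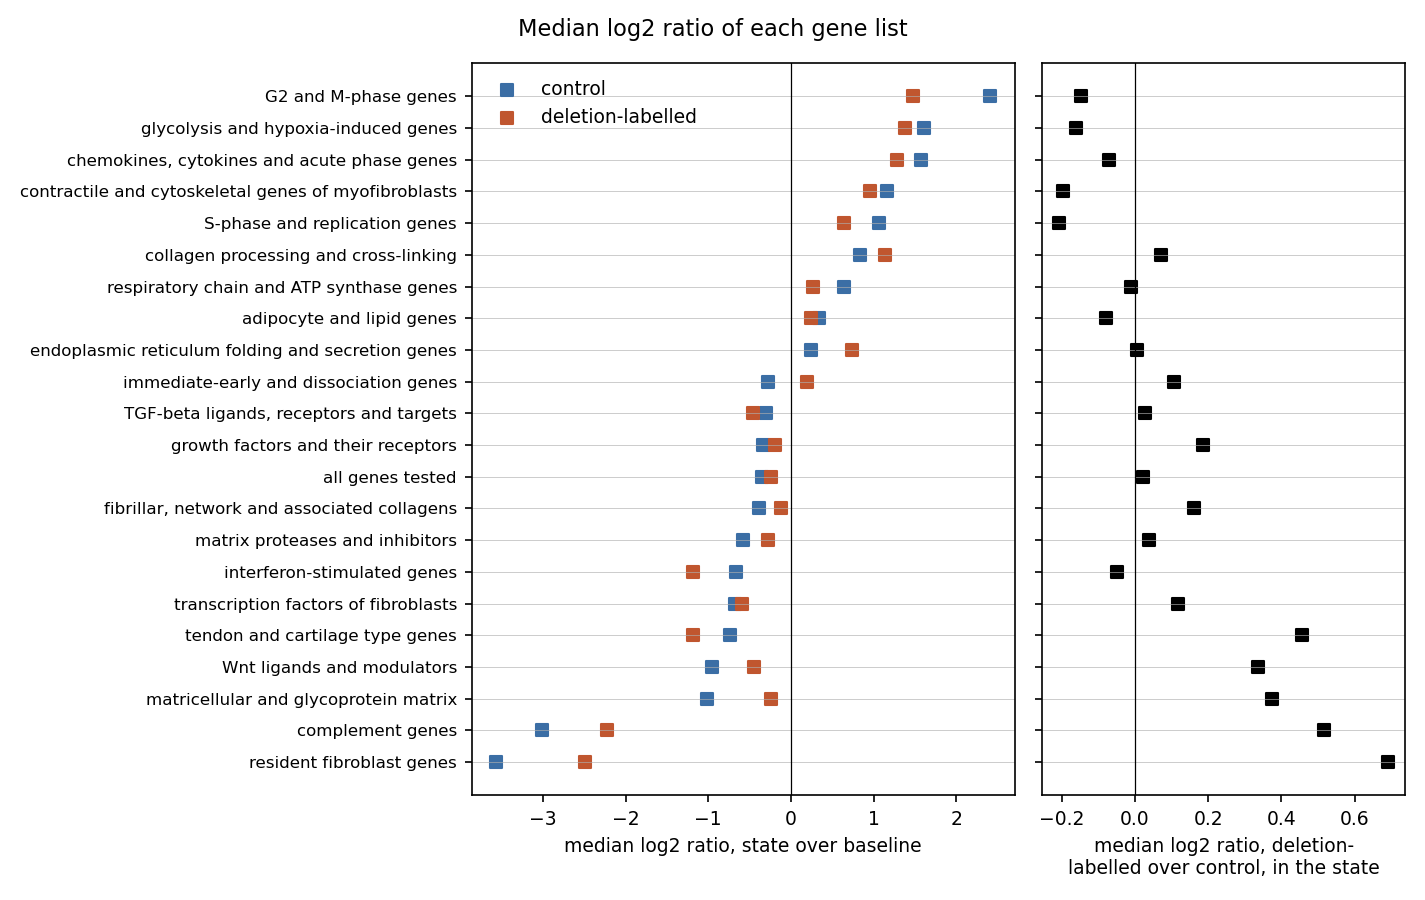
Median log2 ratio of each gene list over its tested members: left, members over baseline fibroblasts in the control (blue) and deletion-labelled (orange) pair; right, deletion-labelled over control within the state. Resident fibroblast genes lie at -3.57 and -2.49 on the left and at 0.69 on the right, and contractile genes at 1.17 and 0.95 and at -0.20.

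The genotype difference in resident genes was present along the whole gate. Members were divided by gate level into 10 to 20, 20 to 40, 40 to 80 and at least 80 per 10000, with 77, 121, 135 and 64 cells of the control and 111, 144, 139 and 108 of the deletion-labelled library. The median log2 ratio of the resident list was 1.04, 0.87, 0.53 and 0.48 in this order, with 21 of 33, 21 of 32, 15 of 31 and 13 of 29 tested genes at least 1.5-fold higher. Of all tested genes, 776 of 8512, 510 of 8271, 393 of 8090 and 567 of 7980 were higher in the same ranges. Clec3b was at 35.3, 7.98, 11.7 and 2.26 CPM in control and 177, 128, 44.3 and 37.1 CPM in deletion-labelled members. It was thus lowest in the highest range in both libraries, and higher in the deletion-labelled library in each of the 4 ranges. With the deletion-labelled cells reweighted to the control distribution over the ranges, the resident median was 0.68. In the lowest range, 9 of 11 tested epicardial markers were at least 1.5-fold lower in deletion-labelled members and 1 was higher. All 12 tested leukocyte markers were lower there, beside 482 of 8512 genes of all kinds. In the highest range 7 of 8 leukocyte markers were lower, beside 417 of 7980 genes, and 3 of 3 epicardial markers higher. The part of this RNA in the resident medians was not tested.

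Prg4 and Acta2 had other courses along the gate. Prg4 was at 252, 397, 422 and 935 CPM in control and 834, 1050, 1232 and 1945 CPM in deletion-labelled members, higher at higher gate levels in both. Postn was at 626, 904, 850 and 1016 CPM in control and 1815, 1971, 1862 and 1543 CPM in deletion-labelled members, so its genotype log2 ratio went from 1.54 in the lowest range to 0.60 in the highest. Acta2 was at 748, 1282, 1468 and 1342 CPM and at 610, 783, 1043 and 945 CPM, lower in the deletion-labelled library in each range. Inhba was at 82.2, 125, 240 and 618 CPM and at 66.6, 80.01, 138 and 221 CPM, with its genotype log2 ratio going from -0.30 to -1.48. The genes that differed most between the highest and the lowest range in both libraries were Aldh1a3, a retinoic acid synthesizing enzyme, with log2 ratios of 3.76 and 2.46, and Enpp1, a pyrophosphate-producing ectoenzyme, with 2.18 and 2.16. On the other side stood Fmo2, a monooxygenase, with -2.98 and -2.68, and Clu, the chaperone clusterin, with -5.83 and -2.11. In the lowest range Clu was at 161 CPM in control and 50.1 CPM in deletion-labelled members. In the control, 10 of 10 tested epicardial markers were at least 1.5-fold lower in the highest range than in the lowest. In the deletion-labelled library 4 of 6 were lower and 2 higher. Of all tested genes, 1366 of 8320 and 1299 of 8325 were lower. The part of epicardial RNA in the Clu ratios was not tested.

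**Figure D5:**
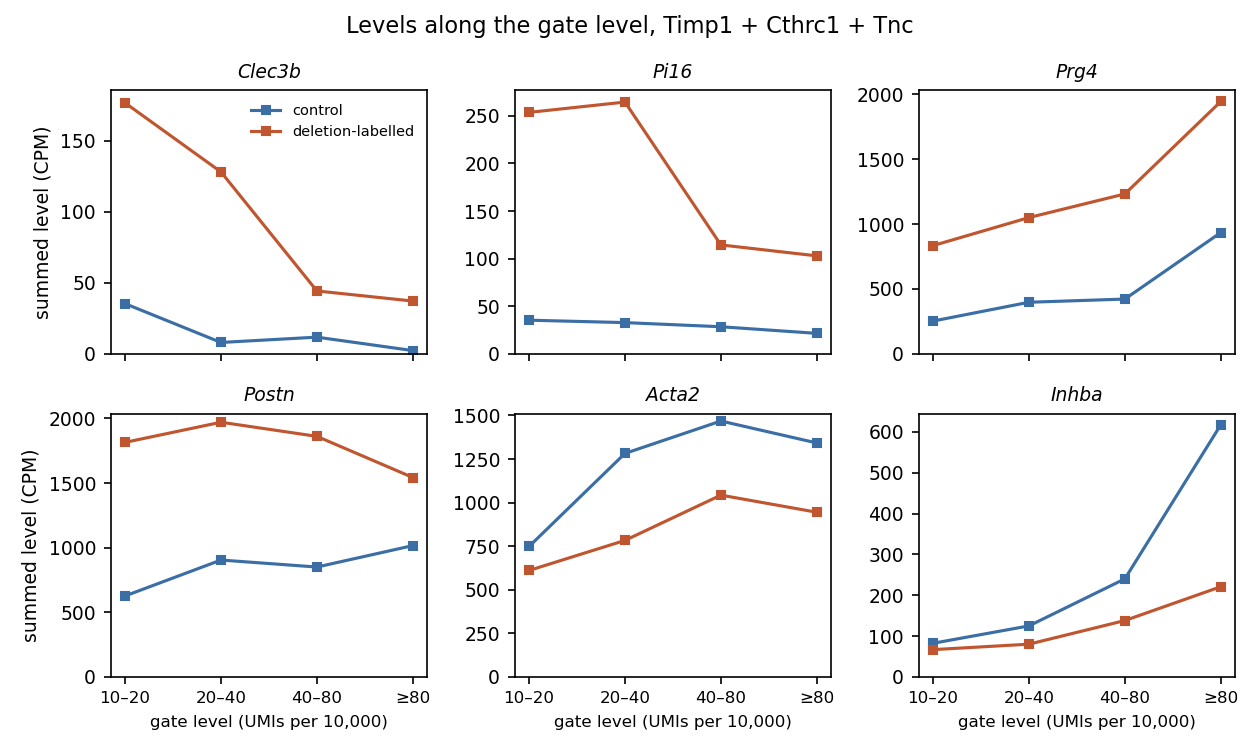
Summed level (CPM) of 6 genes along the gate level (UMIs of Timp1, Cthrc1 and Tnc per 10000) in control (blue) and deletion-labelled (orange) members. Clec3b and Pi16 are lowest in the highest range and higher in the deletion-labelled library in each range, and Acta2 is lower in the deletion-labelled library in each range.

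The neighbouring fibroblast fractions of the same libraries showed where the state differs. Against activated cycling fibroblasts, resident genes stood higher in the members, 19 of 29 tested in the control and 24 of 32 in the deletion-labelled library with 0 lower. Of all tested genes, 6.1% were higher and 8.6% lower in the control and 6.06% and 7.77% in the other library. All 8 tested complement genes were higher in both, while the contractile list had medians of -0.01 and 0.00. Dcn was at 1037 and 1685 CPM in cycling cells against 2000 and 3339 CPM in members, and Acta2 at 1366 and 1108 CPM against 1256 and 861 CPM. Between genotypes, 17 of 29 resident genes were higher in the deletion-labelled cycling cells, beside 2.62% of all tested genes higher and 1.14% lower. The median of the list was 0.62 there and 0.69 in the state.

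Fibroblasts under the activation limit were a less alike pair. Between genotypes 35 of 36 tested resident genes were at least 1.5-fold higher in the deletion-labelled library, with a median log2 ratio of 2.42, where 16.1% of all tested genes were higher and 14.5% lower. The 2 groups of cells also differed in other lists: 36 of 36 genes of the G2 and M phases, 24 of 25 genes of the S phase and 9 of 11 epicardial markers were lower in the deletion-labelled library, with medians of -2.23, -1.36 and -1.96, beside 14.5% of all tested genes lower. No cycling limit applies to these cells, and the part of this make-up in the resident difference was not tested. Clec3b was at 58.3 CPM in the 175 control and 1026 CPM in the 583 deletion-labelled cells of this fraction, and Gsn at 570 and 8396 CPM. Saa3 stood at 1032 and 122 CPM in it, and Il11 at 63.1 and 2.73 CPM. Against this fraction of the same library, 31 of 36 tested resident genes were lower in deletion-labelled members (17.7% of all tested genes were lower), with a median of -1.84. In the control 13 of 31 were lower (12.1% of all) and 5 higher (4.22% of all), with a median of -0.20. Of 28 tested contractile genes, 7 were higher in members in the control and 14 in the deletion-labelled library (6.77% of all tested genes were higher), with 0 lower and medians of 0.44 and 0.65. The resident median between genotypes was thus 0.69 within the state and 2.42 in the fibroblasts under its activation limit, as a description of 1 library a group.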

How the data were processed

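Single-cell RNA was measured in 4 mouse heart libraries, 1 per group, and the matrices that the authors deposited give unnormalized UMI counts for 32287 features, 2 of them sequences added to the genome. The submitters' processing notes name Cell Ranger 5.0.1 and mm10. Library totals ran from 55710468 to 129704045 UMIs over 9149 to 11541 barcodes.

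The members and the gene lists were chosen with earlier results of these data known, and cells were chosen by the gate described in the report, with no clustering. Counts were summed over the cells of a fraction in each library (Python 3.11.15, numpy 2.4.6, scipy 1.17.1) and given as CPM. Each pair of sums was compared by its log2 ratio, with counts under 3 UMIs raised to 3 UMIs and an exact conditional 95% interval. CPM values have exact Poisson intervals and shares of cells exact Clopper-Pearson intervals. Genes were tested for size, at 1.5-fold, when at least 1 sum reached 10 CPM. With 1 library per group there is no estimate of the spread between animals, so no test was run and a difference has no replicate check. The script was checked on simulated counts with known ratios.

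Genes named singly were the 12 highest and 12 lowest log2 ratios within the state, and the 12 each way in both genotypes against baseline. They came from genes with at least 50 CPM and 30 UMIs in a sum, without gate, mitochondrial, ribosomal and predicted genes, and without genes under 0.1 of their level in another gated class. To these were added up to 3 genes each way per list, the 5 each way between the ends of the gate level, the markers of the state and Tcf21. Other genes in the text were chosen from the same lists after their values were seen. Genes whose symbol has more than 1 identifier were left out, and 1 of the 12 lowest genes is not reported here. Doublets were scored with scanpy 1.11.5 at 0.8% per 1000 barcodes and removed in an alternative setting. Detection was compared after thinning each cell to 5000 UMIs. Promoters came from RefSeq on GRCm38.p6 and gene positions from GENCODE vM21. Results were recomputed under 16 other settings, and under 1 more that was chosen after the data were seen.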

Additional observations from a re-analysis of the deposited data

Results flagged for a closer look

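For 6 genes reported here the genotype ratio was past 1.5-fold within the state and past it the other way in baseline fibroblasts. The value given for each is the log2 ratio within the state minus that at baseline, and with 1 library per group the difference was not tested. Tnxb, tenascin X, had the highest value, 2.41, from log2 ratios of 1.82 and -0.59. Prg4, the lubricating proteoglycan, followed at 2.12, from 1.45 and -0.67. Of the 2622 Prg4 UMIs in control baseline fibroblasts, 16.9% came from 1 cell. Without the UMIs of this cell the control baseline level would be lower, and the baseline ratio of Prg4 would lie under 1.5-fold. Its place among the 6 genes thus rests on 1 cell. Uap1, an enzyme of the hexosamine pathway that feeds glycan synthesis, had 1.48, with 122 and 208 CPM in control and deletion-labelled members and 246 and 150 CPM at baseline. Hspa1a, a heat-shock chaperone that tissue digestion can induce, had 1.40, with 36.8 and 57.1 CPM in members and 63.1 and 37.0 CPM at baseline. Svep1, a large adhesion protein of the matrix, had 1.37, with 47.3 and 71.1 CPM in members and 280 and 163 CPM at baseline. Tgfbr3, betaglycan, also had 1.37, from 0.75 and -0.62. All 6 were lower in the deletion-labelled library at baseline and higher in it within the state.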

How the results depend on the processing

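No paired analysis was possible because the libraries carry no replicate numbers and a group is 1 library. The share of infarction fibroblasts in the state was higher in the control than in the deletion-labelled library at each of the settings that change the gate. At activation limits of 5 and 20 per 10000 it was 54.0% and 39.7% for the control, and 45.04% and 29.8% for the deletion-labelled library. It was 53.5% in the control at a fibroblast limit of 20, 37.1% and 30.6% without any cycling UMI, and 63.1% and 48.9% with the gate applied after thinning. Within the state, the 195 higher genes became 298 with means of per-cell CPM, 575 with thinned cells, 884 and 63 at minimums of 1 and 50 CPM, and 51 at 2-fold. The 118 lower genes became 73 with the gate after thinning, 384 with thinned cells, 649 and 25 at these minimums, and 41 at 2-fold. Against baseline the control's 1822 higher genes became 2780 under median-of-ratios scaling, 2787 and 1089 at these minimums and 965 at 2-fold, and its 3746 lower genes became 5645, 1461 and 2305 at the minimums and at 2-fold. In the deletion-labelled pair the 1396 higher genes became 2245, 2271, 809 and 656 in the same order, and the 2952 lower genes 4927, 1054 and 1586. Of the list medians 1154 stayed within the counting interval of their middle genes, 218 moved outside it and 10 turned from a median past 1.5-fold to the other sign, all in marker lists of other cell types. The genotype median of endothelial markers, 0.61, became -0.12 with thinned cells and -0.97 at 50 CPM, and that of epicardial markers, -1.94, became 0.43 at an activation limit of 20 and 0.29 under the stricter lineage limit. Against baseline, the control's pericyte median of -2.61 became 1.09 under the stricter lineage limit. The epicardial median of 5.62 became -2.71 at an activation limit of 20, -2.57 under the stricter lineage limit, -2.63 with the gate after thinning and -2.72 at 50 CPM, and the deletion-labelled epicardial median of -2.04 became 3.53 at 1 CPM. Of the single-gene values 917 moved by less than their interval, 216 by more, and 0 of those past 1.5-fold changed sign. Values nearer 0 also changed sign: 31 times among 18 list medians, such as the interferon list within the state (-0.05 as reported, up to 0.17), and 8 times among 2 genes, Tcf21 (-0.20 to 0.13) and Lox (-0.05 to 0.12) within the state. Where the cause of a change is not given by the setting itself, the cause was not tested. Depth limits low genes: Inmt rests on 6 and 4 UMIs.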

Other observations

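Some gene groups of the state have not been described above. Of the genes of protein folding and secretion, 18 of 31 tested were higher and 0 lower in members than in baseline fibroblasts by the 1.5-fold rule in the deletion-labelled pair, beside 15.3% of all tested genes higher. In the control 10 of 32 were higher, beside 19.7%, and 5 lower, with median log2 ratios of 0.74 and 0.24, deletion-labelled first. The baseline libraries differed in the same list, with 7 of 31 lower in the deletion-labelled one, beside 3.79% of all tested genes lower. Hspa5, the chaperone BiP, was at 1432 and 725 CPM at baseline and 1736 and 1732 CPM in the members. Interferon-stimulated genes differed between the baseline libraries and were nearly level between the members. At baseline 12 of 30 were higher in the deletion-labelled library with 0 lower and a median log2 ratio of 0.43. Of all genes tested between the baseline libraries, 3.34% were higher and 3.79% lower. In the members the median of the interferon list was -0.05, with both signs over the settings. Ifit3, an interferon-induced antiviral protein, was at 31.9 and 61.6 CPM at baseline and 47.2 and 24.6 CPM in the members. Bst2, the antiviral protein tetherin, was at 120 and 200 CPM and then at 182 and 161 CPM.

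Of the transcription factors of fibroblasts, 29 of 56 tested were lower in the state in the control, beside 40.6% of all tested genes, and 30 of 57 in the deletion-labelled pair, beside 32.3%. The higher ones numbered 13 and 11, beside 19.7% and 15.3% of all tested genes higher. Gata4 and Tbx20, factors shared with heart muscle development, were at 41.8 and 45.8 CPM and at 215 and 176 CPM at baseline, and at 17.3 and 17.2 CPM and at 99.5 and 112 CPM in the members. Meox1, a homeobox factor linked to fibroblast activation under pressure load, was about level, at 206 and 247 CPM at baseline and 193 and 248 CPM in the members. Cells of the state have fewer than 3 UMIs of Mki67 and Top2a, and 15 of 21 tested genes of the S phase were higher in them than at baseline in the control and 11 of 20 in the deletion-labelled pair, beside 19.7% and 15.3% of all tested genes. Mcm6, a subunit of the replicative helicase, was at 15.1 and 10.2 CPM at baseline and at 34.1 and 15.6 CPM in the members, against 81.4 and 59.8 CPM in the activated cycling fibroblasts.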
